A study of Mus musculus with 21 samples.

Results

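B cells labelled BCL2 HEL pos were set against B cells labelled HEL neg in 3 lymphoid tissues: spleen, gut-draining mesenteric nodes (mLN) and Peyer's patches (PP, follicle clusters of the small bowel), with the tissue as a covariate. The comparison takes 12 of the 21 libraries of the series, chosen by their labels. These are 9 BCL2 HEL pos libraries, numbered 922, 926 and 950 in each tissue, and 3 HEL neg libraries, each a pool and each the only one of its tissue. All cells came from C57BL/6 mice aged 8 to 12 weeks and were sorted into TRIzol, and RNA was read as single-end 50-bp reads. The labels expand neither HEL nor BCL2, and give no sort gate and no promoter or allele. The 2 groups differ in both HEL and BCL2, so the part of each cannot be told apart. Mice of a group shared a cage, so cage and group cannot be told apart either. The other 9 libraries of the series, HEL pos cells without the BCL2 label, were set against the same 3 pools, and their differences are given beside those of BCL2 HEL pos cells as values. The series states self-reactive B cells of the gut as its subject.

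Mature B cells circulate mostly at rest. On meeting antigen and T cell help some enter germinal centres, where they divide rapidly and mutate their antibody genes before they leave as memory or plasma cells. Peyer's patches hold such germinal centres continuously because of the gut flora. Cells bound for death are held in check by the antiapoptotic proteins of the BCL2 family, which bind and block the BH3-only proteins that start death at the mitochondrion.

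Library totals were 5475131 to 11340876 counts, with 12747 to 15788 genes detected per library. Levels are in CPM, counts relative to library totals scaled by TMM; 3 counts, taken as the floor, were worth 0.257 to 0.51 CPM depending on the library, and this covers counting error only. Within a group and tissue, Spearman correlations between libraries, across genes, were 0.978 to 0.989, and no pair agreed within sampling noise. The PP BCL2 HEL pos library 950 stood apart from the other 2 of its group: its chi-square per degree of freedom against them was 55.7 and 47.8, against 9.66 to 15 for all other pairs, and its level of the ribosomal RNA transcript Rn45s was 7870 CPM, against 22100 to 34200 CPM in the other 11 libraries. Summed levels of 10 B cell markers were 15900 to 19300 CPM in the pools and 14600 to 20700 CPM in BCL2 HEL pos cells, so B cell transcripts were abundant in every library. The mLN libraries, at 15200, 14600 and 15100 CPM, all lay below their pool at 19200 CPM, while spleen and PP libraries lay on both sides of theirs. Of the 10 markers 2 were called lower, Cr2 and Ms4a1 (-0.45 ± 0.13), and none higher, beside 8.1% lower and 6.56% higher over all genes tested. Y-linked transcripts and Xist were present in all 12 libraries. Library numbers recur over tissues and nothing says that they are single mice, so p-values measure only how these libraries spread, part of which may be technical.

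Bcl2 itself, the founding antiapoptotic gene (chr1:106538178-106714274 in mm10), stood at 99.7, 91.4 and 95.6 CPM in the spleen, mLN and PP pools. In BCL2 HEL pos cells it was 182, 144 and 176 CPM in spleen, 174, 133 and 158 CPM in mLN, and 153, 142 and 140 CPM in PP, for libraries 922, 926 and 950 in that order, which is kept below. Every library lay above its pool, and the fitted log2 fold change was 0.70 ± 0.11 (SE; 9 libraries against 3 pools; edgeR quasi-likelihood adjusted p = 0.000579). In HEL pos cells without the BCL2 label it was -0.48. Counts of the mouse gene say nothing of a transcript that the table has no row for.

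The BH3-only gene Bmf showed the largest change of the family. It lies at chr2:118528757-118549687 and stood at 22.9, 19.3 and 9.02 CPM in the pools, against 98.3, 88.3 and 98.1 CPM in spleen, 89.9, 104 and 96.2 CPM in mLN, and 47.7, 59.4 and 53.7 CPM in PP. All 9 libraries were well above their pool, a rise of 2.28 ± 0.14 (edgeR adjusted p = 2.88e-08), beside 1.69 in HEL pos cells. Bcl2l11, which encodes the BH3-only protein BIM, stood at 49.4, 37.4 and 43 CPM in the pools and 72, 95.2 and 98 CPM in spleen, 115, 227 and 152 CPM in mLN, and 49.2, 81 and 63.3 CPM in PP. It rose by 1.12 ± 0.26 (edgeR adjusted p = 0.00827), with all 9 libraries above their pool but 1 PP library close to it; without the mLN HEL neg pool the call was lost. Bid, a BH3-only gene cleaved by caspases, fell by 0.86 ± 0.13, from 102 to 163 CPM in the pools to 59.9 to 87.6 CPM. Bak1, a pore-forming member, fell by 0.76 ± 0.23 in the main fit but lost its call in 12 of 22 alternatives. Of 8 proapoptotic members tested, 2 rose and 2 fell (25% each), beside 6.56% higher and 8.1% lower over all genes tested. Of 7 antiapoptotic members, Bcl2 and Bcl2a1d rose (28.6%) and none fell. Neither family was tested as a set. Bcl2a1d rose by 1.21 ± 0.32 (edgeR adjusted p = 0.017), a call lost without the mLN pool or the PP pool; its 3 spleen libraries, at 3.82 to 5.63 CPM, straddled the pool at 4.75 CPM, while all mLN and PP libraries were above theirs. Bcl2a1d belongs to a family of near-identical copies, among which reads can be split, and its value is uncertain for that reason. Mcl1 (0.40 ± 0.17) and Bcl2l1 (-0.16 ± 0.19) did not pass.

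Over all genes, 10987 were tested and 1611 (14.7%) passed an edgeR adjusted p under 0.05, 721 higher (6.56%) and 890 lower (8.1%) in BCL2 HEL pos cells. The larger differences were mostly reductions: 512 of the called genes were over 2-fold lower and 174 over 2-fold higher. In 907 genes (8.26%) all 9 libraries lay above the pool of their tissue, and in 978 (8.9%) all lay below. As values without a test, genes over 2-fold lower with all 3 libraries below the pool numbered 667 (6.07%) in spleen, 734 (6.68%) in mLN and 1119 (10.2%) in PP. The corresponding numbers higher were 400 (3.64%), 715 (6.51%) and 509 (4.63%). In every tissue alike, with all 9 libraries on 1 side, 294 genes were over 2-fold lower and 62 over 2-fold higher. The count of calls rests on the pools: it was 1010 without the mLN pool and 1001 without the PP pool. HEL pos cells against the same pools gave 990 calls among 11406 genes (8.68%), 395 higher (3.46%) and 595 lower (5.22%).

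**Figure D1:**
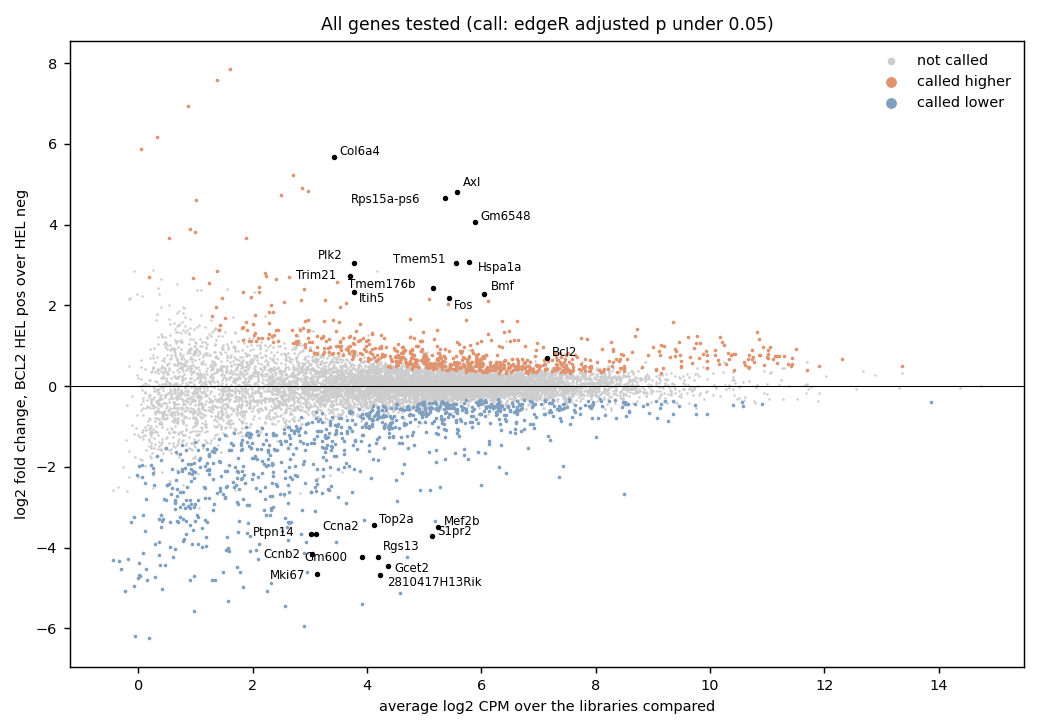
Log2 fold change of BCL2 HEL pos over HEL neg cells (vertical axis) against the average log2 CPM (horizontal axis) for the 10987 genes tested; each point is 1 gene, coloured by its edgeR call, and black points with names are Bcl2 and genes from both ends of the fold changes past the threshold, taken where the average level was at least 3 (log2 CPM) and all 9 libraries lay on 1 side of their pools. The called genes past a log2 fold change of -2 are more numerous than those past 2, and the labelled points run from Col6a4 at 5.68 to 2810417H13Rik at -4.67.

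The gene lists moved unevenly, and none was tested as a set. Counts of called members are to be read beside the shares over all genes tested, 6.56% higher and 8.1% lower. Lists of dividing cells and of germinal centre cells had the lowest medians among B cell lists, and those of interferon-stimulated genes and ribosomal proteins the highest, against a median of 0.01 over all genes tested.

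**Figure D2:**
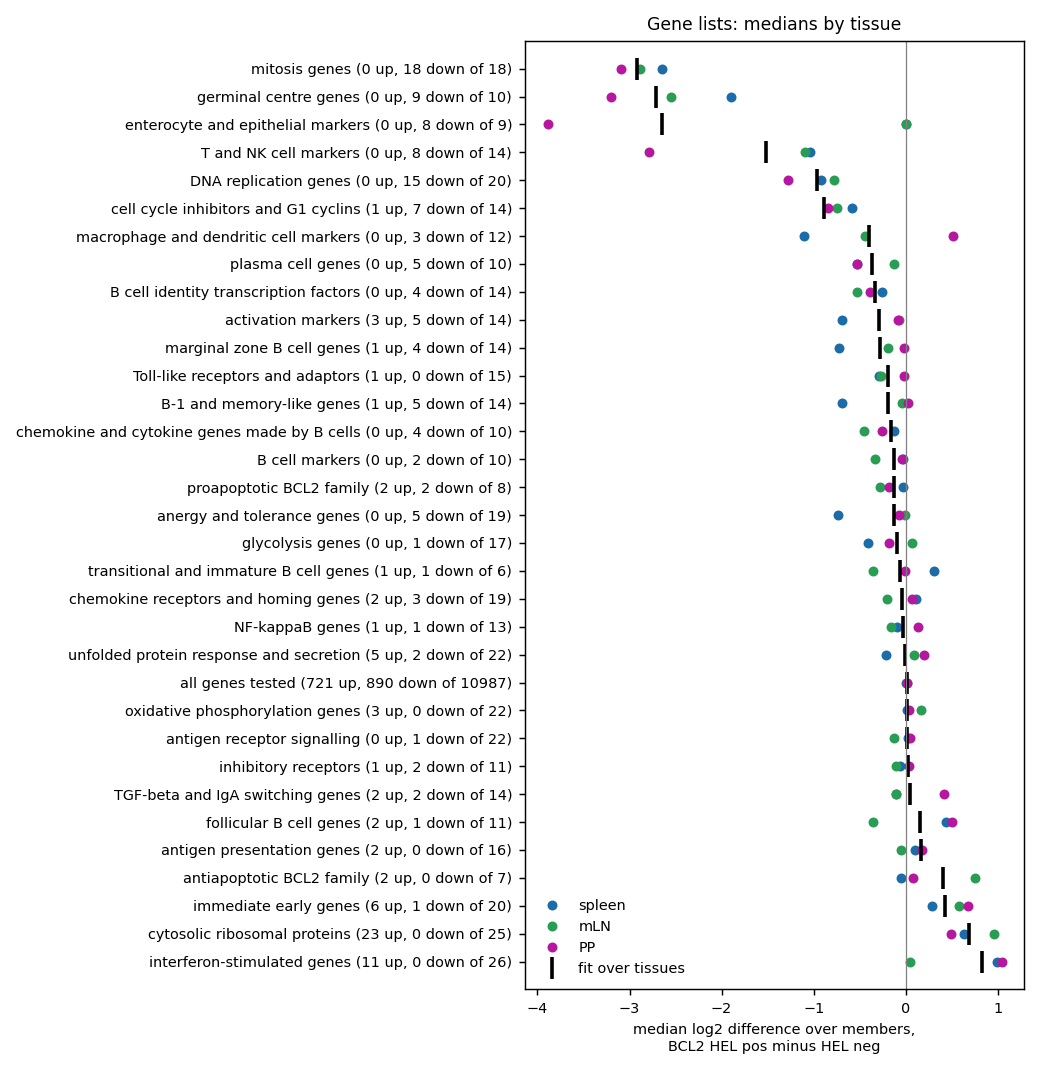
Median log2 difference of BCL2 HEL pos minus HEL neg cells (horizontal axis) for each gene list (vertical axis, with the members called higher and lower of those tested); coloured points are the medians within each tissue and black bars those of the fit over tissues. Mitosis genes lie at -2.65, -2.89 and -3.09 in spleen, mLN and PP, while interferon-stimulated genes lie at 0.99 and 1.04 in spleen and PP and at 0.05 in mLN.

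All 18 mitosis genes listed were tested and all 18 fell, with a median of -2.92 (8.1% of all genes fell). Their summed level was 327, 352 and 447 CPM in the spleen, mLN and PP pools and 50.5 to 85.1 CPM in the 9 BCL2 HEL pos libraries, so the groups did not overlap in any tissue. The members lay between -4.81 and -0.91. In HEL pos cells their median was -2.18. Without the PP library 950 again 18 were lower, and without all PP libraries 17.

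Mki67 (chr7:135689784-135716361), which encodes the proliferation antigen Ki-67, stood at 23.9, 24.7 and 45.9 CPM in the pools. In BCL2 HEL pos cells it was 2.31, 0.347 and 0.793 CPM in spleen, 1.66, 2.77 and 0.138 CPM in mLN, and 1.64, 1.74 and 0 CPM in PP. The highest of these was far below the lowest pool, a fall of 4.65 ± 0.51 on the log2 scale (edgeR adjusted p = 1.27e-05). Top2a, the topoisomerase that untangles replicated chromosomes, stood at 64, 42.3 and 56.6 CPM in the pools against 1.2 to 9.42 CPM, and changed by -3.43 ± 0.32. Ccnb2, a cyclin that drives entry into mitosis, stood at 23.2, 32.1 and 29.9 CPM against 0 to 3.02 CPM, and changed by -4.16 ± 0.40. Birc5 (survivin, a chromosome passenger) changed by -3.48 ± 0.31. Ccna2, a cyclin of S and G2 phase, and 2810417H13Rik (Pclaf, a PCNA-binding factor) were also among the 12 lowest genes, at -3.66 ± 0.40 and -4.67 ± 0.28.

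Genes of DNA replication fell as well, but less evenly: 15 of 20 passed, none rose, and the median was -0.97. Rrm2, the regulated subunit of ribonucleotide reductase, stood at 49, 38.1 and 55.5 CPM in the pools. In BCL2 HEL pos cells it was 5.63, 4.86 and 3.97 CPM in spleen, 6.51, 3.49 and 4.69 CPM in mLN, and 6.42, 2.55 and 4.71 CPM in PP. All 9 values lay in 1 narrow band below the pools, a change of -3.31 ± 0.21 (edgeR adjusted p = 4.43e-08). Cdc6, a licensing factor of replication origins, changed by -4.08 ± 0.42. Uhrf1, which recruits the maintenance methyltransferase to new DNA, changed by -2.58 ± 0.17. The 6 subunits of the MCM helicase all fell, by smaller amounts, from -0.69 ± 0.12 (Mcm7) to -1.14 ± 0.11 (Mcm3). The sliding clamp Pcna (0.03 ± 0.13) and the licensing factor Cdt1 (-0.03 ± 0.13) did not pass. Of 14 cell cycle inhibitors and G1 cyclins tested, 7 fell, among them Ccnd3, the D-type cyclin of germinal centre B cells, at -1.23 ± 0.15 and the transcription factor E2f1 at -2.41 ± 0.39. The cyclin-dependent kinase inhibitor Cdkn1b (p27) was the only member that rose, by 0.47 ± 0.14, and none rose without the spleen pool, the PP pool, spleen library 926 or 950 or mLN library 926, each left out in turn.

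Promoters of genes with these roles are known to carry the CCAAT box and the cell cycle homology region, TTTGAA. The 250 bases before the RefSeq start (GRCm38.p6) were searched on both strands, and matches could overlap one another. TTTGAA was present in 7 of 16 windows of the called mitosis genes found in the RefSeq table (43.8%), against 16% of 32841 windows of all genes, and CCAAT in 14 of 16 (87.5%), against 33.9%. The E2F-type letters TTTNNCGC were in 7 of 18 windows of tested DNA replication genes, called or not (38.9%), against 4.28% of all. In mitosis genes they were in 1 of 16 windows. A match describes letters in a window, not binding. Top2a (chr11:99024190-99024439, minus strand) and Ccnb2 (chr9:70421555-70421804, minus strand) are shown. They were the first 2 called mitosis genes, by smallest edgeR p, for which a window with both motifs was found. Birc5 came before them by p, and no such window was found for it. Capitals mark TTTGAA or its reverse complement TTCAAA and CCAAT or its reverse complement ATTGG.
Top2a: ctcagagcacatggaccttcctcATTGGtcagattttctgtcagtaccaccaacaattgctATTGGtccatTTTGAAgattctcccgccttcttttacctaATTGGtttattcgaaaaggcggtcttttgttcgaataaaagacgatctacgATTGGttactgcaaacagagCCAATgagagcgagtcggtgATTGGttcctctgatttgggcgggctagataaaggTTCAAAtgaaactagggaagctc
Ccnb2: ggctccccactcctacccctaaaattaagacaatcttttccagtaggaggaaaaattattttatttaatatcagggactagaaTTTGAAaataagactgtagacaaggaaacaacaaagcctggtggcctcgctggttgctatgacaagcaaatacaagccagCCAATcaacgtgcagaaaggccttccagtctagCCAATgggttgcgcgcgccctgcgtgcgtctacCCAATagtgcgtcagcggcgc

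Germinal centre genes formed the other group that fell together. Of 10 tested, 9 fell and none rose, with a median of -2.71, and within-tissue medians of -1.9 in spleen, -2.55 in mLN and -3.2 in PP. In HEL pos cells the median was -3.17. The same count, 9, was lower without the PP library 950 and without all PP libraries. The labels do not say that HEL neg pools were sorted by activation state. In bulk samples fewer cells of a type and less RNA per cell cannot be told apart.

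S1pr2 (chr9:20962361-20976781), which encodes the receptor that keeps B cells inside the follicle centre, stood at 53.2, 73.5 and 228 CPM in the spleen, mLN and PP pools. In BCL2 HEL pos cells it was 10.1, 4.4 and 9.12 CPM in spleen, 10.1, 8.78 and 6.21 CPM in mLN, and 10.2, 2.55 and 10.1 CPM in PP. The pools were far above every library, and the log2 fold change was -3.72 ± 0.33 (edgeR adjusted p = 1.81e-06), beside -4.54 in HEL pos cells. Mef2b, a transcription factor upstream of Bcl6, stood at 54.7, 89.2 and 220 CPM against 3.13 to 23.1 CPM (-3.48 ± 0.24). Rgs13, which dampens chemokine receptor signals, stood at 35.7, 96.6 and 59.9 CPM against 0 to 8.31 CPM (-4.23 ± 0.46).

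The within-tissue difference of S1pr2 was -2.8 in spleen, -3.12 in mLN and -5.09 in PP; with 1 pool per tissue these are values only. Bcl6, the master regulator of the germinal centre, fell less, by 0.94 ± 0.16, from 147, 198 and 189 CPM in the pools to 67.7 to 147 CPM. Cd38 (-0.17 ± 0.14) did not pass. Gcet2 (Gcsam) and Gm600 (Nuggc), both known for expression in germinal centre B cells, were outside the list and among the 12 lowest genes, at -4.46 ± 0.35 and -4.24 ± 0.28, as was the phosphatase gene Ptpn14 at -3.67 ± 0.38.

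**Figure D3:**
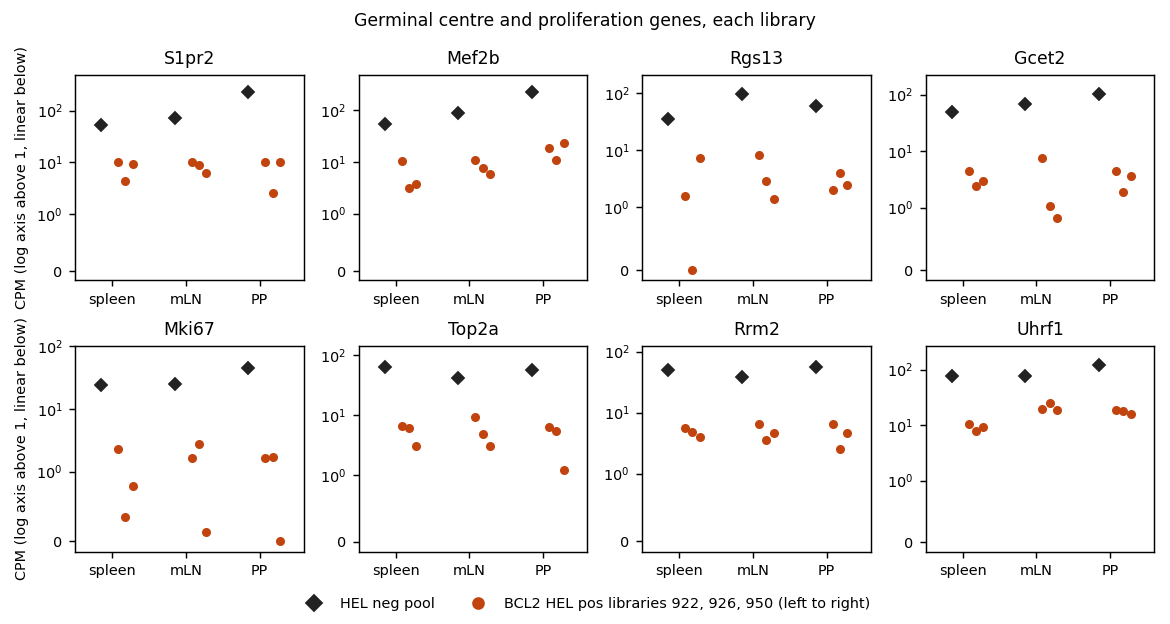
Level of 8 germinal centre and proliferation genes in CPM (vertical axis, logarithmic above 1 CPM and linear below) in each library by tissue (horizontal axis); black diamonds are the HEL neg pools, and orange points the BCL2 HEL pos libraries 922, 926 and 950 from left to right. In all 8 panels every orange point lies below the diamond of its tissue, for example 2.55 to 10.2 CPM against 53.2 to 228 CPM for S1pr2.

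Genes of later or antigen-experienced B cells were mixed. Of 10 plasma cell genes 5 fell and none rose (2 fell without the PP pool). Igj (Jchain, the joining chain of IgA and IgM) stood at 346, 206 and 522 CPM in the pools. In BCL2 HEL pos cells it was 350, 142 and 98.4 CPM in spleen, 59, 71.1 and 27.9 CPM in mLN, and 74.8, 51.2 and 17.7 CPM in PP. Spleen library 922 was level with its pool and the other 8 were below, a change of -2.26 ± 0.44 (edgeR adjusted p = 0.00232), which lost its call without the PP pool. Prdm1, the plasma cell regulator Blimp-1, fell by 1.18 ± 0.31, a call lost without the spleen pool or the PP pool, and Xbp1 (-0.11 ± 0.14) and Sdc1 (0.61 ± 0.28) did not pass. Of 14 B-1 and memory-like genes 5 fell and 1 rose. The annexin gene Anxa2 (-3.34 ± 0.31) and Nt5e, which encodes the ectonucleotidase CD73 (-1.94 ± 0.26), fell. The annexin partner S100a10 rose by 0.91 ± 0.14, with all 9 libraries above their pool.

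Of 14 activation markers 5 fell and 3 rose (3 and 1 without the PP pool). Slamf1 (CD150, -1.70 ± 0.20), Traf1 (-0.70 ± 0.12) and the adhesion receptor Cd44 (-0.73 ± 0.16) fell. Irf4, a transcription factor induced in proportion to antigen receptor signal, went the other way. It stood at 117, 104 and 107 CPM in the pools and at 152, 180 and 143 CPM in spleen, 312, 390 and 322 CPM in mLN, and 258, 392 and 281 CPM in PP. All libraries were above their pool, with the mLN and PP libraries above all spleen libraries, and the log2 fold change was 1.17 ± 0.21 (edgeR adjusted p = 0.00114). The classic activation markers Cd69 (0.34 ± 0.23), Cd83 (-0.15 ± 0.18) and Cd86 (-0.17 ± 0.18) did not pass.

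Among immediate early genes, which respond within minutes to receptor signals and also to handling of cells, 6 of 20 tested rose and 1 fell. Jun, a subunit of the AP-1 dimer, stood at 136, 44.7 and 43.6 CPM in the pools and 85.9 to 219 CPM in BCL2 HEL pos cells, above its pool in 9 of 9 libraries (1.06 ± 0.22, edgeR adjusted p = 0.00339). Its partner Fos stood at 31.6, 1.42 and 7.66 CPM in the pools, against 82.3, 72.7 and 71 CPM in spleen, 84.7, 36.9 and 26.6 CPM in mLN, and 70.6, 15.8 and 11.4 CPM in PP. The mLN pool was lower than the rest and the PP libraries spread widely (2.19 ± 0.60, edgeR adjusted p = 0.0217). The Fos call was lost in 6 of 22 alternatives, among them limma voom and those without the mLN pool or the PP pool. Fosb, Junb and Btg2 also rose. Only 3 of the list were higher without the mLN pool and 1 without the PP pool. Nr4a2 was at 1 count in all pools together and 179 counts in BCL2 HEL pos cells, a ratio per depth of 48.1 (95% counting interval 8.52 to 1910). PP library 950 held most of these, at 10 CPM, and without it 62 counts in 8 libraries gave a ratio of 19.8 (3.43 to 795); spleen libraries were at 0 to 0.116 CPM. The phosphatase gene Dusp5 fell by 2.01 ± 0.56, but no member of the list was lower without the mLN pool or without the PP pool. Nr4a1, the receptor-signal reporter gene Nur77, did not pass (0.63 ± 0.42, edgeR adjusted p = 0.365): its within-tissue differences were -1.03 in spleen, 1.43 in mLN and 1.81 in PP, with levels of 15.6 to 36.2, 94.6 to 143 and 185 to 410 CPM against pools at 48.1, 42.3 and 79.1 CPM. Egr1 (-0.13 ± 0.26), Egr2 (0.47 ± 0.44) and Egr3 (0.22 ± 0.30) did not pass either. Of 19 genes listed for anergy, the state in which B cells no longer respond to antigen, none rose and 5 fell, among them Nt5e, Tox (-4.07 ± 0.55) and Ptpn6 (SHP-1, -0.40 ± 0.11); without the spleen pool 2 rose and 2 fell.

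Antigen receptor signalling genes were nearly level: 1 of 22 tested passed, Rasgrp3, which fell by 0.64 ± 0.13, and the median was 0.01. The receptor subunits Cd79a (-0.06 ± 0.12) and Cd79b (0.02 ± 0.13) and the kinases Lyn (0.03 ± 0.13) and Btk (0.11 ± 0.11) did not pass. Of 13 NF-kappaB genes, Nfkbiz rose by 0.71 ± 0.11 and Nfkb2 fell by 0.53 ± 0.12. The calls of Rasgrp3 and Nfkb2 were lost without the mLN pool. Of 14 B cell identity transcription factors 4 fell: Spib (-0.69 ± 0.12), Pou2f2 (OCT2, -0.64 ± 0.11), Ikzf3 (Aiolos, -0.59 ± 0.10) and Foxo1 (-0.69 ± 0.18). Foxo1 differed by 0.15 in spleen, -0.97 in mLN and -1.12 in PP, and its call was lost without the mLN pool or the PP pool. Of 11 genes tested in the list of inhibitory receptors Fcrl5 (-1.23 ± 0.21) and Lair1 (-1.44 ± 0.30) fell. Cd200 (0.59 ± 0.18), which is on that list but encodes a ligand, rose. Lair1 lost its call without the mLN pool, and Cd200 in 9 of 22 alternatives, among them those without the spleen pool or the PP pool.

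Among the highest genes Axl (chr7:25757273-25788705), a receptor tyrosine kinase that binds dying cells through GAS6, varied most by tissue. It stood at 2.17, 2.36 and 0.34 CPM in the pools, against 3.32, 3.94 and 4.89 CPM in spleen, 81.6, 159 and 112 CPM in mLN, and 37.3, 84.5 and 76.7 CPM in PP. The mLN and PP libraries were far above all others, and the spleen libraries only slightly above their pool. The fitted value was 4.82 ± 0.70 (edgeR adjusted p = 0.000218), the within-tissue differences were 0.81, 5.44 and 6.71, and HEL pos cells gave 4.88. Col6a4, a collagen VI chain gene, was at 5 counts in all pools together and 980 in BCL2 HEL pos cells, a ratio per depth of 52.6 (95% counting interval 22.5 to 162). The kinase gene Plk2 rose by 3.05 ± 0.62, a call lost with limma voom, and Trim21, which encodes an intracellular antibody receptor, by 2.74 ± 0.27. Tmem51 (3.05 ± 0.29), Tmem176b (2.42 ± 0.24) and Itih5 (2.34 ± 0.36) completed the group with all libraries above their pool. The heat shock gene Hspa1a stood at 16.2, 6.45 and 2.89 CPM in the pools and 20.3 to 199 CPM in BCL2 HEL pos cells (3.07 ± 0.40), beside -1.67 in HEL pos cells; Hspa1b is a near-identical copy, so reads can be split between them.

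**Figure D4:**
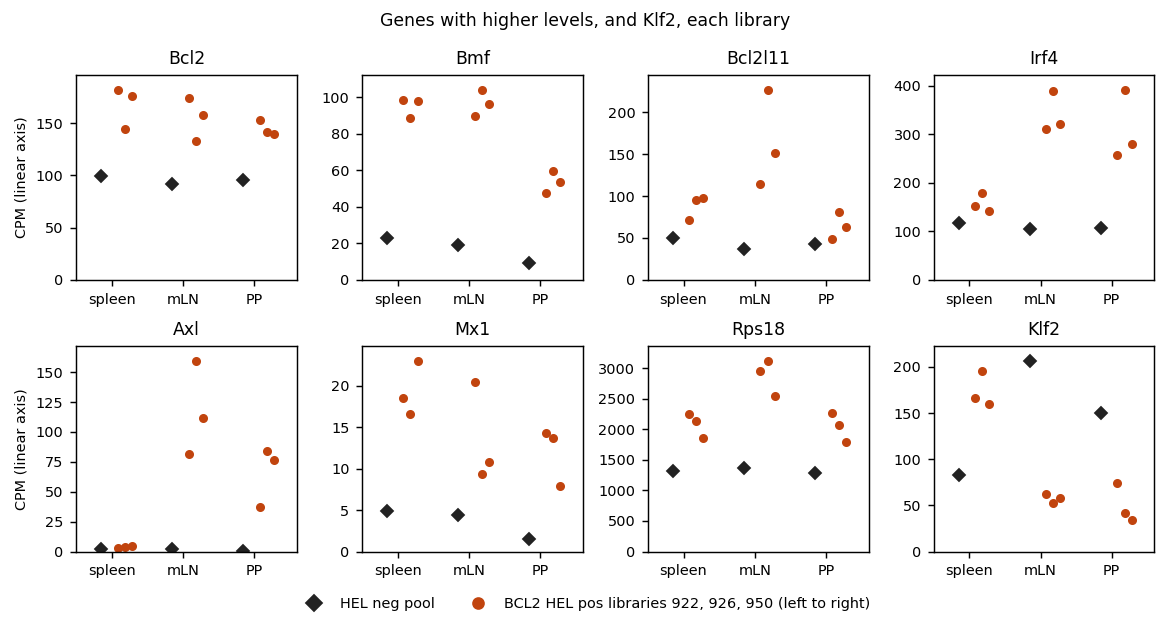
Level of 8 genes in CPM (vertical axis, linear from 0) in each library by tissue (horizontal axis); black diamonds are the HEL neg pools, and orange points the BCL2 HEL pos libraries 922, 926 and 950 from left to right. Bcl2, Bmf, Irf4 and Rps18 lie above the pool in all 9 libraries, Axl stays at 3.32 to 4.89 CPM in spleen, and Klf2 lies above its pool in spleen and below it in mLN and PP.

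Genes of cytosolic ribosomal proteins rose almost as a set. Of 25 listed 23 rose and none fell, with a median of 0.68 (6.56% of all genes rose). Over all 88 tested symbols that begin with Rpl or Rps, 69 rose and 2 fell. That count goes by symbol alone, so it takes in pseudogenes such as Rps15a-ps6 and any other gene so named. The summed level of the listed genes was 37400, 38300 and 35000 CPM in the pools. It was 57700, 55400 and 48500 CPM in spleen, 70800, 77700 and 63800 CPM in mLN, and 57100, 54300 and 36800 CPM in PP. Library 950 of PP was thus close to its pool and the other 8 were clearly above. Rps18 stood at 1310, 1370 and 1280 CPM in the pools and at 1800 to 3110 CPM in the 9 libraries (0.80 ± 0.13, edgeR adjusted p = 0.00067). Rpl23 showed the largest rise of the list, 1.33 ± 0.26, with PP library 950 at 662 CPM, below its pool at 765 CPM. Of the list, 23 were higher without that library, 22 without all PP libraries, 6 without the mLN pool and 4 without all mLN libraries.

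Rps15a-ps6 and Gm6548, annotated by RefSeq as transcribed pseudogenes, were among the highest genes. Rps15a-ps6 stood at 1.77, 1.42 and 3.06 CPM in the pools, against 53.4, 55.8 and 47.5 CPM in spleen, 64.6, 74.9 and 63.5 CPM in mLN, and 52.5, 47.7 and 23.3 CPM in PP (4.66 ± 0.33, edgeR adjusted p = 1.46e-07). Gm6548 stood at 4.35, 3.78 and 5.44 CPM in the pools and 52.6 to 109 CPM in the 9 libraries (4.07 ± 0.21). Both were high in every BCL2 HEL pos library, and HEL pos cells gave -0.04 and 0.54. Reads of such copies can be shared with their parent genes, so both values are uncertain.

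Interferon-stimulated genes, the antiviral set switched on by interferon receptors, rose in 11 of 26 members and fell in none, with a median of 0.83. Mx1, a dynamin-like antiviral GTPase, stood at 4.89, 4.4 and 1.53 CPM in the pools, against 18.5, 16.6 and 22.9 CPM in spleen, 20.4, 9.38 and 10.8 CPM in mLN, and 14.3, 13.7 and 7.89 CPM in PP. All were above their pool, a rise of 2.07 ± 0.33 (edgeR adjusted p = 0.000481). Mx2 rose by 1.64 ± 0.30, the membrane restriction factor Ifitm3 by 1.95 ± 0.34, the oligoadenylate synthetase-like Oasl2 by 1.11 ± 0.19, the deubiquitinase-like Usp18 by 0.83 ± 0.18 and Stat2 by 0.57 ± 0.12. Isg15 (0.73 ± 0.24) and Irf7 (0.39 ± 0.30) did not pass. The summed level of the 26 was 1360 CPM in the spleen pool and 1700 to 2060 CPM in spleen BCL2 HEL pos cells, 1410 against 1340 to 1380 CPM in mLN, and 960 against 1150 to 1510 CPM in PP. It was therefore higher in spleen and PP and not in mLN. The call counts moved with single libraries: 6 rose without the PP pool, 7 without the spleen pool, 14 without the mLN pool, 10 without PP library 950 and 7 without all PP libraries. In the fits without the PP pool, without PP library 950 and without all PP libraries 1 member was lower.

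The core letters of the interferon-stimulated response element are GAAA and again GAAA with any 2 bases between them. They were present in 10 of 23 windows of the tested list members, called or not (43.5%), against 2.98% of all windows. The windows were the same 250 bases, searched on both strands, and covered 19 genes. The share among called genes alone was not counted. Stat2 (chr10:128270248-128270497, plus strand) and Ifitm2 (chr7:140955962-140956211, minus strand), which rose by 0.57 ± 0.12 and 2.65 ± 0.70, are shown. They were the first 2 called members, by smallest edgeR p, for which a window with a match was found. Mx1, Oasl2, Ifitm3 and Mx2 came before them by p, and no such window was found for these. Capitals mark a match or its reverse complement.
Stat2: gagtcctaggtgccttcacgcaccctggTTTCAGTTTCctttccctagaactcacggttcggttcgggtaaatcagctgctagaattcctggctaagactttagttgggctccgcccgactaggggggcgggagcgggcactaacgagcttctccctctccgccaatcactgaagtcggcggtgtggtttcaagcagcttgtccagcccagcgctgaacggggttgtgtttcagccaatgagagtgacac
Ifitm2: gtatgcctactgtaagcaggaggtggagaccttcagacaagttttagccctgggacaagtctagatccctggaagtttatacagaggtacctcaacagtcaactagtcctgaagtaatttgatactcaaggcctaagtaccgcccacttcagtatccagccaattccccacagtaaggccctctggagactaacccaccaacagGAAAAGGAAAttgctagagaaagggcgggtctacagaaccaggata

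Lists of B cell subsets and of homing had a few called members in both directions, beside 6.56% of all genes higher and 8.1% lower. For chemokine receptors and homing genes the shares were 10.5% and 15.8%. Of 14 marginal zone B cell genes 4 fell and Plac8 rose (0.77 ± 0.21), a call lost without the mLN pool or the PP pool. The complement receptor Cr2 stood at 1180, 627 and 556 CPM in the pools and at 545 to 615, 262 to 330 and 450 to 545 CPM in spleen, mLN and PP (-0.79 ± 0.14, edgeR adjusted p = 0.00122). The tetraspanin Cd9 (-1.90 ± 0.28) and Asb2 (-2.47 ± 0.36) fell. Of 6 transitional B cell genes tested Ms4a4c rose by 1.03 ± 0.18 and Cd24a, the heat-stable antigen, fell by 0.67 ± 0.19, a call lost in 7 of 22 alternatives, among them those without the mLN pool or the PP pool. Of 11 follicular genes Ccr7 and Cd200 rose and Klf2 (-1.06 ± 0.35, edgeR adjusted p = 0.0494) fell; Klf2 was above its pool in the 3 spleen libraries and lost its call in 15 of 22 alternatives. Ccr7, the receptor that draws B cells towards the T cell zone, rose by 1.09 ± 0.24, a call lost without the PP pool: it stood at 434, 432 and 276 CPM in the pools and 576 to 1250 CPM in the 9 libraries, which did not overlap them. Of 19 genes of chemokine receptors and homing 2 rose and 3 fell: Ccr7 and Cxcr4 (1.30 ± 0.28), and Cxcr3 (-2.61 ± 0.45), Klf2 and the integrin gene Itgb2 (-0.37 ± 0.12). The call of Itgb2 was lost in 13 of 22 alternatives. Of 10 chemokine and cytokine genes 4 fell and none rose (2 fell without the mLN pool). Among them Lta (-0.86 ± 0.21) and Ltb (-0.69 ± 0.19), which shape lymphoid tissue, both lost their call without the mLN pool; their differences were -0.15 and -0.08 in spleen and -1.38 and -1.46 in mLN. Among genes of TGF-beta response and IgA switching, Il5ra fell by 2.05 ± 0.28 and Smad3 and Tgfbr2 rose by 0.83 ± 0.24 and 0.45 ± 0.12, calls that were both lost without the mLN pool and without the PP pool; the difference of Smad3 in spleen was 0. Tlr7, an endosomal sensor of single-stranded RNA, rose by 1.12 ± 0.27, with 60.8 to 92.9 CPM in PP against a pool at 12.1 CPM. In antigen presentation 2 of 16 rose, H2-Aa by 0.51 ± 0.12 and H2-Oa by 0.41 ± 0.12, and none without the PP pool. Metabolic lists were nearly level, with 1 of 17 glycolysis genes lower and 3 of 22 oxidative phosphorylation genes higher (none without the mLN pool). Of 22 genes of the unfolded protein response 5 rose, among them Ddit3 (CHOP) at 0.81 ± 0.18 and Atf4 at 0.64 ± 0.18, and 2 fell; only 1 rose without the mLN pool, and 1 without the PP pool.

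Several markers of other cell types were higher in the pools, and their part in the results above was not tested. Of 9 enterocyte and epithelial markers tested of 16 listed, 8 were lower in BCL2 HEL pos cells and none higher. Their summed level was 26.2, 16.7 and 1370 CPM in the spleen, mLN and PP pools and 4.43 to 8.08 CPM in spleen and mLN BCL2 HEL pos cells. In PP libraries 922, 926 and 950 it was 14.6, 108 and 156 CPM. Apoa1 was at 271 CPM in the PP pool, 0.252 to 11 CPM in PP BCL2 HEL pos cells and at most 0.157 CPM in all spleen and mLN libraries, so its fitted fold change rests on 1 pool. Of the list, 1 of 9 tested was lower without the PP pool and 2 of 9 with DESeq2. The low-count filter left fewer to test without PP library 926 (3 of 4 lower), without PP library 950 (4 of 4) and without all PP libraries (1 of 1).

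Of 14 T and NK cell markers tested of 17 listed 8 were lower and none higher. They summed to 339, 273 and 279 CPM in the pools and to 252 to 276, 125 to 129 and 114 to 171 CPM in spleen, mLN and PP BCL2 HEL pos cells. Thy1 stood at 14, 10.1 and 8.17 CPM in the pools and 0 to 0.722 CPM in all 9 libraries (-5.33 ± 0.43), beside 0.12 in HEL pos cells, and Cd3e at 2.99, 3.15 and 9.36 CPM against 0.257 to 3.94 CPM. The count was 4 without the mLN pool, 4 without the PP pool, 6 without PP library 950 and 5 without all PP libraries. Of 12 macrophage and dendritic cell markers tested of 17 listed 3 were lower and none higher. Fold changes ran from -5.44 to 1.80, with 7 of 12 below 0. Their sums were 95.3, 67.3 and 44.1 CPM in the pools. In BCL2 HEL pos cells the sums were 17.2 to 52.7 CPM in spleen and 16.4 to 26.4 CPM in mLN. PP libraries, at 41.4, 38.9 and 53.3 CPM, lay on both sides of their pool. Within-tissue medians were -1.11 in spleen, -0.44 in mLN and 0.51 in PP. The fitted median of -0.40 turned to 0.23 without the spleen pool. Siglech of plasmacytoid dendritic cells was at 24.2, 35.6 and 7.32 CPM against 0 to 1.3 CPM. Granulocyte markers summed to 75.5 CPM in the spleen pool and to at most 2.55 CPM in all other libraries, and of the granulocyte, erythroid and stromal lists 1, 2 and 2 members were tested and none passed.

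**Figure D5:**
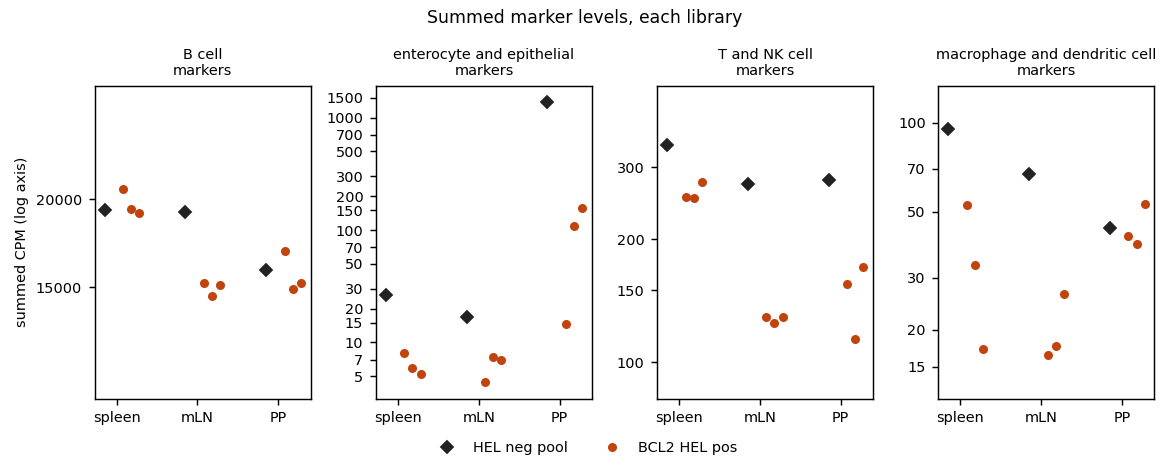
Summed CPM (vertical axes, logarithmic) of B cell, enterocyte and epithelial, T and NK cell, and macrophage and dendritic cell markers in each library by tissue (horizontal axes); black diamonds are the HEL neg pools and orange points the BCL2 HEL pos libraries 922, 926 and 950 from left to right. The PP pool reaches 1370 CPM of epithelial markers, and the B cell sums of the groups span 14600 to 20700 CPM.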

How the data were processed

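RNA of sorted B cells was measured in 12 libraries, 9 of BCL2 HEL pos and 3 of HEL neg cells. The authors deposited a table of raw counts per gene symbol. The submitters' processing notes name the tools STAR, HTSeq and DESeq2 and the build mm10, without roles, versions or strand settings. Per the labels' protocols libraries were made with TruSeq and with Nextera XT reagents; which applied is uncertain, and a gene cannot be told from an antisense partner. Of 23337 gene symbols, 20892 had an unambiguous match in GENCODE M21; older symbols were matched to RefSeq (GRCm38.p6).

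Genes were filtered with filterByExpr by kind of cell, libraries scaled with TMM, and kinds compared with edgeR's quasi-likelihood test (4.0.16, R 4.3.3; tissue as an additive covariate; two-sided; Benjamini-Hochberg adjustment over all genes tested; call at an adjusted p under 0.05; residual degrees of freedom 8; BCV, the coefficient of variation between libraries, 0.193). Fold changes are log2 with standard errors, and levels are CPM. Within-tissue differences are mean log2 CPM (prior count 2) of 3 libraries minus the pool, with no test. Named genes were the 12 highest and 12 lowest called genes whose average log2 CPM reached 3 and which had all 9 libraries on 1 side of their pool, at most 4 called members of each list by smallest p, and Bcl2 (1 is not reported here); other list members are named with their values where a list's account needs them. Members and lists were chosen with earlier results of these data known. Alternatives were DESeq2 1.42.0, its size factors, no filter, each library or tissue left out, no covariate, a fit of all 21 libraries, and limma 3.58.1 voom with and without the library label as a block. List counts without PP library 950 and without PP libraries were added after seeing the data, as were count ratios without PP library 950. On simulated counts (10987 genes, 200 changed) edgeR found 22.8% of the 1.5-fold, 68.1% of the 2-fold and 91.5% of the 4-fold changes, and 7 of its 134 calls were false. Apart from the set changes each gene had 1 mean over all libraries, which were drawn independently. Tissue effects, changes that differ by tissue and shared library numbers were left out, so these rates need not hold for the real calls.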

Additional observations from a re-analysis of the deposited data

Results flagged for a closer look

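Klf2, a transcription factor that keeps lymphocytes at rest and in circulation, moved in opposite directions between tissues, with every library of spleen on 1 side of its pool and every library of mLN and PP on the other. It stood at 83 CPM in the spleen pool and 166, 196 and 160 CPM in spleen BCL2 HEL pos cells, at 206 CPM against 62.8, 53 and 57.6 CPM in mLN, and at 150 CPM against 74.1, 41.4 and 34.6 CPM in PP. The within-tissue differences were 1.06, -1.83 and -1.66 on the log2 scale. Each value rests on 1 pool, and the difference between tissues was not tested. The fit over tissues gave -1.06 ± 0.35 (edgeR adjusted p = 0.0494), a call that was lost in 15 of 22 alternatives, DESeq2 among them.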

How the results depend on the processing

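Against 1611 calls, DESeq2 gave 1902, edgeR with DESeq2 size factors 1577, edgeR on unfiltered genes 2391, all 21 libraries 1639 and limma voom 1546; the count fell to 737 without mLN libraries and to 1007 without the tissue covariate. Leaving out 1 library in turn gave 1001 (without the PP HEL neg pool) to 1777 (without the spleen HEL neg pool), with 1010 without the mLN HEL neg pool; the cause was not tested. With the library label as a replicate block limma voom gave 1492 (estimated correlation 0.00679). The HEL neg pools all carry the label Pool, so this block joined them although they come from different tissues. Deviations of same-numbered libraries correlated at 0.07 to 0.23 over 9 pairs and of different numbers at -0.16 to 0.06. Every same-numbered pair thus lay above every pair of different numbers, so libraries of the same number went together weakly across tissues. Not every same-numbered pair passed 0.1, and the numbers were not taken to pair the samples. The main fit therefore treated same-numbered libraries as independent, and its p-values do not allow for what they share. No named gene changed direction in the alternatives that could fit it, and 66 of 116 kept their call in all of them. Medians of lists near 0 did turn, for example marginal zone genes from -0.28 to 0.05 and activation markers from -0.29 to 0.10 without the spleen pool. Calls lost most often were Ndufb5 (17 of 22 alternatives), Klf2 (15), Itgb2 (13) and Bak1 (12). Within-tissue differences, each against 1 pool, were given as values and not tested.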

Other observations

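Several called genes had no count in any of the 3 pools and were chosen for that after their values were seen. They passed the low-count filter only through BCL2 HEL pos libraries, so their difference follows in part from the choice. The folds below set a mean against a counting floor, do not allow for the spread between libraries, and are descriptions only. Gprc5b, an orphan receptor gene, was at 1.13 to 7.67 CPM in 9 of 9 BCL2 HEL pos libraries, at least 23.8-fold higher than a floor of 3 counts over the pools together (0.153 CPM), and 3 of 9 HEL pos libraries had a count. The gene 4931429I11Rik was at least 19.9-fold higher, with counts in 9 of 9 BCL2 HEL pos and 4 of 9 HEL pos libraries. Ephb6, an ephrin receptor, was at least 13.4-fold higher, Tnfsf4, the ligand of OX40, at least 7.98-fold and the adhesion molecule gene Mcam at least 6.62-fold. Tnfsf4 had a count in 7 of 9 and Mcam in 6 of 9 BCL2 HEL pos libraries. These 3 genes had a count in 7 of 9 HEL pos libraries each.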
